A study of Mus musculus with 18 samples.

Results

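Deletion of Rbpj by K14-CreERT, called KR, was measured in 4 mice (KR 1, KR 3, KR 4 and KR 5) and compared with 2 controls of the same batch (control 4 and control 6), which together are 6 of the 18 mice of the series. These mice were chosen by the genotype given in the labels, and every gene of the count table was used. KR mice carried K14-CreERT, a Cre recombinase driven by the promoter of the basal keratin Krt14 and active once tamoxifen is given, together with the Rbpj deletion. The labels say that mice received tamoxifen at 8 weeks of age, and dorsal skin was taken 10 weeks later. The controls are labelled only as controls for KR. Their alleles, the strain and whether they carry the Cre are not given in the sources used here. The series also holds LR mice, in which Lrig1-CreERT2 deleted Rbpj (n = 3, with 3 controls), and KN1 mice, in which K14-CreERT1 deleted Notch1 (n = 4, with 2 controls). Skin described as telogen, when hair follicles rest, was split with trypsin, the epidermal side was scraped off, and poly(A) RNA was sequenced from 1 library per mouse.

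Rbpj is the DNA-binding protein of the Notch pathway. A ligand of the Delta or Jagged family on 1 cell causes cleavage of a Notch receptor on its neighbour, and the freed intracellular part of the receptor joins Rbpj and a Mastermind protein on target genes to switch them on. Without that partner Rbpj can hold target genes down with corepressors. In the epidermis the pathway is known for helping basal keratinocytes to leave the basal layer and differentiate, and its loss in mouse skin is known to be followed by barrier defects and by release of the cytokine TSLP.

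Total counts ran from 8076316 to 9562955 in KR and were 20260259 in control 4 and 11236817 in control 6. Control 4 joins reads of 1 mouse sequenced on 2 occasions, and control 6 has a second name in the labels, so run history and genotype cannot be told apart fully here. Reads on genes of mitochondrial DNA were 0.982% to 1.72% of the counts in KR, 1.87% in control 4 and 3.17% in control 6. Counts of Xist and of Y-linked genes put KR 3, KR 5 and control 4 as female and KR 1, KR 4 and control 6 as male. As a check of the tissue, 19 basal keratinocyte markers summed to between 38023 and 46031 CPM in KR and to 36362 and 33741 CPM in controls 4 and 6, while 11 endothelial markers summed to 8.90 to 32.9 CPM in KR and 8.26 and 12.1 CPM in the controls. CPM is the count of a gene scaled to the library's size, with factors that match libraries to each other. Adipocyte markers, given with the matrix genes below, summed higher in every KR mouse than in both controls. Values of the KR mice are given below in the order KR 1, 3, 4 and 5, and those of the controls in the order 4 and 6. In RNA from whole tissue, fewer cells of a type and less RNA per cell cannot be told apart.

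The deleted gene was examined first. Rbpj (chromosome 5, 53466152 to 53657362, plus strand, GRCm38, protein coding) had 41.4, 45.9, 44.01 and 40.9 CPM in KR and 58.1 and 60.8 CPM in the controls. All 4 KR mice were below both controls, with a log2 fold change of -0.47 ± 0.17 (± SE) that did not pass the test (adjusted p = 0.135). Adjusted p-values of single genes are those of edgeR, by its quasi-likelihood fit, corrected over all 16517 tested genes by the method of Benjamini and Hochberg, and a gene is said to have risen or fallen when this value is under 0.05. Counts cover the whole gene and do not resolve a deleted exon, so this level does not check the genotype. Notch1, a receptor gene that the KR label does not name as deleted, had 330.4, 384, 363 and 318 CPM against 342 and 326 CPM, a log2 fold change of 0.06 ± 0.20.

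In KR epidermis 264 of 16517 genes changed (1.6%). Of these 115 rose (0.696% of the genes tested) and 149 fell (0.902%), and a 2-fold change or more was reached by 82 and 63. The median log2 fold change over all genes tested was 0.04, and 53.4% were positive. An unadjusted p under 0.05 by edgeR was reached by 3780 of the 16517 genes. DESeq2, a second program run as an alternative, called 1076 of 20995 genes. The counts given below for gene lists are to be read against these numbers. In all 264 changed genes the 4 KR mice lay wholly above or wholly below the 2 controls, which was also so in 38.4% of all genes tested. The number of changed genes depended on single mice. It was 21 without control 4, 5 without control 6, 65 without KR 1, 19 without KR 3, 24 without KR 5 and 651 without KR 4. Of the 264 genes, 4 were also called when control 6 was left out. Gypc and Tslp were the 2 genes that were called under every one of 27 alternative analyses. With all 7 controls of the series pooled 181 of the 264 were called. Among genes named below, those that did not pass included Alox12e, Cxcl1, Dsc3, Itch, Krt14, Mfge8, Mpp7, Rpl7, Slc9a3, Thbs1, Tnfrsf4 and Tnfrsf18. Capg, Dzip1l, Eef1a1, Nfkb2, Paip1, Parp8, Relb, Rras and Sppl2a did not pass there either. With KR and its controls alone 227 were called, and Btc, Dsg1a, Epb41l2, H2-DMa, H2-DMb2, Mboat2, S1pr3, Serpina3n and Serpinb7 did not pass. Genes that did not pass without a filter on low counts included Fn1, H2-DMb2, Il13ra1, Mfge8, Mrgprb3, Rras, Serpinb7, Tmprss11f and Tnfrsf9.

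**Figure D1:**
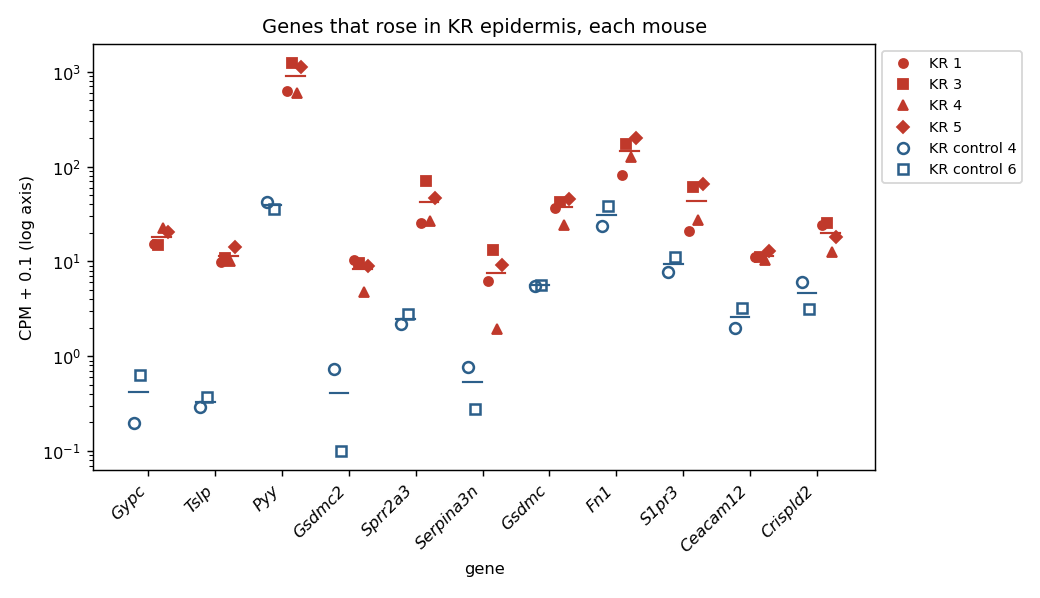
Level of the 11 named genes that rose in KR, in CPM + 0.1 on a log axis, for each KR mouse (filled, red) and each control (open, blue), with short lines at the group means. The genes were chosen for no overlap between the groups, so the KR mice lie above both controls for every gene by that choice. Gypc lies between 14.7 and 22.2 CPM in KR, and KR 3 and KR 5 are the highest mice for Pyy, Sprr2a3, Fn1 and S1pr3.

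Among the genes plotted above, the largest rises were in 2 genes hardly detected in control epidermis, Gypc and Tslp. Gypc encodes glycophorin C, a membrane protein best known from red blood cells, where it ties the membrane skeleton to the membrane. Its level was 15.1, 14.7, 22.2 and 20.2 CPM in KR and 0.0966 and 0.541 CPM in the controls. Its log2 fold change was 6.02 ± 0.53 (adjusted p = 2.02e-05). The groups were far apart, and the highest control was at 0.541 CPM against a lowest KR mouse of 14.7 CPM. Of the 11 tested genes of glycophorin C and the membrane skeleton proteins of its complex, 2 rose and 1 fell, with a median log2 fold change of -0.12 (-0.02 without control 4). The other 2 were Epb41l2, a relative of the red cell skeleton protein 4.1, which rose by 0.81 on the log2 scale, and the scaffold gene Mpp7 at -0.84. The red cell precursor list had 0 of 5 tested genes called by edgeR, 0 by DESeq2 and 0 at an unadjusted p under 0.05, and a median of -0.18 (from -0.42 without KR 5 to -0.11 without control 6), and its 8 markers summed to 8.09 to 8.60 CPM in KR and to 10.1 and 9.82 CPM in the controls.

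Tslp encodes thymic stromal lymphopoietin, a cytokine that epithelial cells release to instruct dendritic cells and type 2 lymphocytes. It stood at 9.85, 10.7, 10.03 and 14.1 CPM in KR and at 0.193 and 0.270 CPM in the controls. All KR mice were above both controls, as the choice of named genes required, and the 4 KR values lay close to each other. The log2 fold change was 5.58 ± 0.58 (adjusted p = 0.000128). In the list of TSLP, other epithelial alarmins and type 2 cytokines with their receptors, 1 of 13 tested genes rose and 1 fell, with a median of 0.50 (0.91 without control 4). The gene that fell was Il13ra1, a receptor chain for the type 2 cytokines IL-4 and IL-13, with 99.3, 96.5, 119 and 86.8 CPM in KR and 166 and 164 CPM in the controls (-0.72 ± 0.18, adjusted p = 0.0491). Crlf2, which encodes the TSLP receptor chain, had 10.9, 26.6, 17.8 and 16.1 CPM against 8.60 and 3.78 CPM, higher in every KR mouse but not past the threshold (1.50 ± 0.41, adjusted p = 0.0656). It was added after its values were seen.

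A gut hormone gene rose as well. Pyy (chromosome 11, 102106676 to 102107832, minus strand) encodes peptide YY, a hormone of gut endocrine cells. Its level was 627, 1228, 591 and 1124 CPM in KR and 42.1 and 35.7 CPM in the controls (4.52 ± 0.59, adjusted p = 0.0053). KR 3 and KR 5 were the higher pair, and the groups were far apart. The Merkel and neuroendocrine cell list had 0 of 4 tested genes called by edgeR or DESeq2, 1 at an unadjusted p under 0.05 and a median of 0.10 (from -0.28 without KR 3 to 0.28 without KR 1). Among 4 tested gut peptide genes Pyy was the 1 call. S1pr3, a receptor for the lipid sphingosine 1-phosphate, had 21.01, 60.9, 27.3 and 65.1 CPM against 7.68 and 10.99 CPM (2.24 ± 0.45, adjusted p = 0.0311).

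Genes of the cornified envelope and of membrane pores were a further group. The small proline-rich proteins are cross-linked into the envelope of dying keratinocytes and are induced in stressed epidermis. Of the 7 tested Sprr genes 2 rose and 0 fell, all 7 were positive, and their median log2 fold change was 3.48. Sprr2a3 had 25.3, 69.6, 26.6 and 46.5 CPM in KR and 2.08 and 2.70 CPM in the controls (4.15 ± 0.74, adjusted p = 0.0211). The near-identical Sprr2a1 had 1.90, 3.17, 2.46 and 3.55 CPM against 0.435 and 0.0901 CPM (3.20 ± 0.72, adjusted p = 0.039), and how reads were shared between these copies is uncertain. The stress keratins, made in wounded or hyperproliferative skin, had 0 of 5 tested genes called by edgeR, 1 by DESeq2 and 2 at an unadjusted p under 0.05. Krt16 was at 64.7, 201, 41.04 and 77.5 CPM in KR and at 11.3 and 14.9 CPM in the controls (adjusted p = 0.142), higher in every KR mouse and highest in KR 3. Of 15 tested late cornified envelope genes 0 were called by edgeR or DESeq2, with 2 at an unadjusted p under 0.05 and a median of 0.47 (0.98 without control 4 and 0.28 without KR 4).

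Gasdermins form pores in cell membranes. Of 6 tested members 2 rose, Gsdmc and Gsdmc2, with a list median of 0.76 (1.63 without control 6). Gsdmc (chromosome 15, 63775968 to 63808759, minus strand) had 36.6, 42.7, 23.9 and 45.5 CPM in KR and 5.41 and 5.59 CPM in the controls (2.76 ± 0.43, adjusted p = 0.0105). Gsdmc2 had 10.2, 9.61, 4.61 and 8.78 CPM against 0.628 and 0 CPM (4.43 ± 0.83, adjusted p = 0.0211). These neighbours are close copies of each other, and counts may be shared between them. Serpina3n, a secreted inhibitor of serine proteases, had 6.05, 13.2, 1.84 and 8.98 CPM against 0.676 and 0.1802 CPM (3.97 ± 0.84, adjusted p = 0.0344), with KR 4 the lowest of the KR mice. The rest of the serpin list was mixed: of 34 tested members 1 rose and 2 fell, with a median of 0.12 (from -0.01 without KR 5 to 0.23 without KR 1).

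The promoters of some of these genes are shown because Rbpj binds DNA with the core TGGGAA, most often within GTGGGAA. The windows shown for Sprr2a3 and Serpina3n hold such letters in the reference. Pyy has 2 promoter entries, and the window shown for it does not hold them. Whether Rbpj acts at any of these genes was not tested. Each line gives the 250 bases before the gene's start in RefSeq, 5′ to 3′ on the gene's strand, from GRCm38.p6, with matches to TGGGAA or GTGGGAA on either strand in capitals. The genes were chosen after matches in about 22 genes had been seen. The windows are chr3:92285054-92285303 (plus strand), chr12:104406458-104406707 (plus strand) and chr11:102107833-102108082 (minus strand), and for Sprr2a3 and Serpina3n the RefSeq start differs from the GENCODE start.
Sprr2a3: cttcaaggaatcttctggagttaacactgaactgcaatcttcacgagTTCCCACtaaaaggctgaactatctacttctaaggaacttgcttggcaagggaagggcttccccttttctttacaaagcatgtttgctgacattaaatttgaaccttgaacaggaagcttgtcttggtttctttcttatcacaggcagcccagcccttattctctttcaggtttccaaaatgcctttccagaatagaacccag
Serpina3n: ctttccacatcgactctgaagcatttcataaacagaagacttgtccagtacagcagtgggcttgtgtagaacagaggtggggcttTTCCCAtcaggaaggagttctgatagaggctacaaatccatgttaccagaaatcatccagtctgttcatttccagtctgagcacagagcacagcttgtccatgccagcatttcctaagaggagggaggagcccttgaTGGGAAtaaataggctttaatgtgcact
Pyy: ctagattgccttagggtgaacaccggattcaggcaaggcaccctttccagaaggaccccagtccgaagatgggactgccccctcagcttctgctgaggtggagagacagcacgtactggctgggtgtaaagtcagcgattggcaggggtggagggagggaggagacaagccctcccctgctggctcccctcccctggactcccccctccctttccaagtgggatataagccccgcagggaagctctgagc
The match in Sprr2a3 lies 203 bases before the start, on the opposite strand, and the 222 bases that its window shares with that of Sprr2a1 are identical. The 2 matches in Serpina3n lie 165 and 28 bases before the start and hold the core only. Over all genes tested that have a promoter in the table (10231), TGGGAA was present in 23.9% and GTGGGAA, every match of which also holds TGGGAA, in 6.54%. Among genes that rose, 27 of 78 held the core (34.6%) and 11 of 78 the longer motif (14.1%). Among genes that fell the counts were 19 of 81 (23.5%) and 4 of 81 (4.94%). These are descriptions of letters in the reference, with no test, and the table held 159 of the 264 changed genes.

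Matrix and immune genes also rose. Fn1, the matrix protein fibronectin laid down in wounds, had 80.7, 174, 127 and 200.5 CPM in KR and 23.6 and 38.2 CPM in the controls (2.24 ± 0.52, adjusted p = 0.048). Thbs1, the matrix protein thrombospondin, had 335, 445, 257 and 410.0 CPM against 155 and 111 CPM (1.44 ± 0.26, adjusted p = 0.016). When all 7 controls of the series were pooled, the log2 fold change of Thbs1 was -0.17 instead. Fn1 and Thbs1 were the 2 of 22 tested matrix remodelling genes that rose, with a median of 0.26 (0.10 without control 4, 0.47 without control 6, 0.16 without KR 1 or KR 5 and 0.11 without KR 3), and the 13 fibroblast markers summed to 186 to 225 CPM in KR and to 149 and 215 CPM in the controls. The 4 adipocyte markers summed to 14.02 to 18.6 CPM in KR and to 7.39 and 7.57 CPM in the controls. Of 2 tested adipocyte genes 1 rose. All 7 tested endothelial genes were positive (median 1.07), with 0 called by edgeR, 1 by DESeq2 and 3 at an unadjusted p under 0.05. The muscle list (7 tested genes) had a median of -0.09 (-0.23 without control 4 and 0.60 without control 6). The Schwann cell list (3 tested genes) had a median of -0.24 (0.24 without control 4 and 0.68 without control 6). The part of any of these cell types in the result was not tested. Ceacam12 (2.20 ± 0.32), an adhesion family gene, and Crispld2 (2.12 ± 0.40), a secreted protein gene, had the smallest rises of the 11 named genes.

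Among chemokines, which attract white blood cells, 2 of 18 tested rose, with a median of 0.61. The neutrophil chemokine gene Cxcl1 had 29 counts summed over KR and 0 in both controls. With 3 counts over the control group as the floor it was at least 8.00-fold higher (adjusted p = 0.0329). Against all 7 controls pooled its log2 fold change was 0.05 and did not pass. Ccl27a, a keratinocyte chemokine that draws T cells to the skin, had 416, 302, 299 and 311 CPM in KR and 179 and 171 CPM in the controls (0.92 ± 0.22, adjusted p = 0.042). In the TNF superfamily 3 of 33 tested genes rose (median 0.41, and 0.18 without control 6): Tnfrsf4, Tnfrsf18 and Tnfrsf9, which encode the co-stimulatory receptors OX40, GITR and 4-1BB of activated T cells. Tnfrsf18 had 68.5, 63.9, 58.9 and 69.9 CPM against 38.5 and 31.8 CPM, with no overlap (0.89 ± 0.18, adjusted p = 0.0265). Tnfrsf4 and Tnfrsf9 had log2 fold changes of 0.94 and 2.62. The T cell list had 0 of 23 tested genes called by edgeR, 1 by DESeq2 and 2 at an unadjusted p under 0.05, with a median of -0.10 (from -0.18 without control 6 to -0.04 without control 4). Its 23 markers summed to 214 to 339 CPM in KR and to 231 and 148 CPM in the controls, and its part in the result was not tested.

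MHC class II molecules show peptides to helper T cells and are carried in epidermis by Langerhans cells. Log2 fold changes of the 10 tested class II genes were all positive (median 0.90), and 2 rose. Of the 10, 4 rose by DESeq2 and 8 had an unadjusted p under 0.05 by edgeR. The median was 0.48 without control 6 and 1.68 without control 4. H2-DMa, which loads peptides onto class II, had 57.2, 50.3, 47.4 and 61.8 CPM in KR and 31.97 and 15.9 CPM in the controls (1.17 ± 0.25, adjusted p = 0.0344). H2-DMb2, its partner chain, rose by a log2 value of 1.28 ± 0.32 (adjusted p = 0.0485). The controls were apart from each other: the mean log2 CPM of the list was 5.22 in control 4 and 4.07 in control 6, against 5.50 to 5.83 in KR. In the Langerhans cell list 12 of 13 tested genes were positive (median 0.92, and 0.59 without control 6), and 1 rose, Mfge8, which encodes a bridge protein for uptake of dying cells (1.14 ± 0.28, adjusted p = 0.048). Its defining marker Cd207 had 25.9, 24.8, 31.1 and 23.7 CPM in KR and 30.7 and 10.00 CPM in the controls, and its 14 markers summed to 367 to 452 CPM in KR and to 363 and 249 CPM in the controls, with control 6 below every other mouse. Of the 13 tested Langerhans cell genes, 4 rose by DESeq2 and 10 had an unadjusted p under 0.05 by edgeR. The part of these cells in the result was not tested. Class I genes had 0 of 16 called by edgeR, 1 by DESeq2 and 5 at an unadjusted p under 0.05, with a median of 0.27 (0.15 without control 6).

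**Figure D2:**
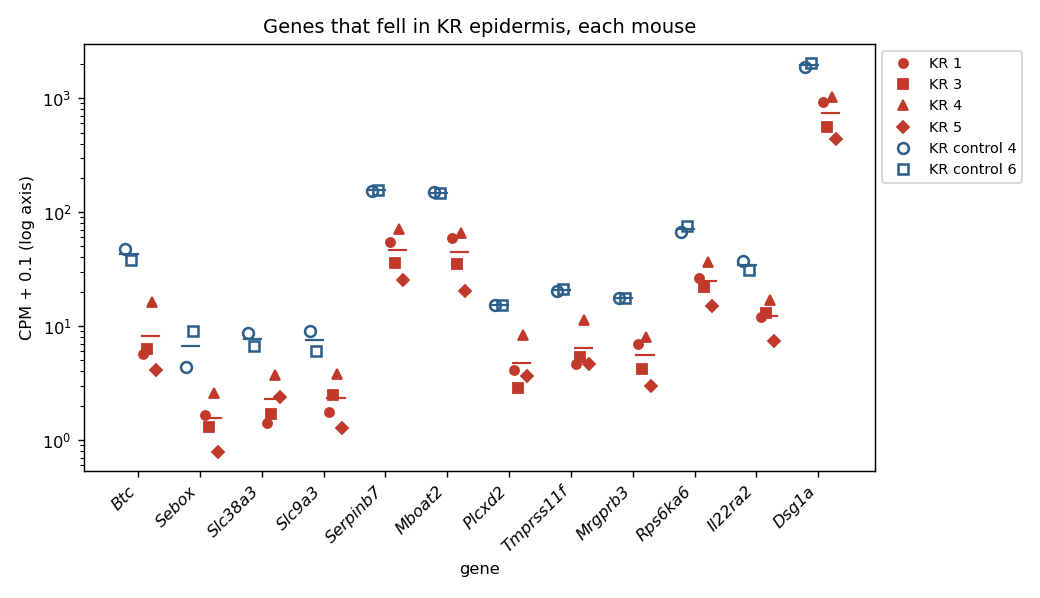
Level of the 12 named genes that fell in KR, in CPM + 0.1 on a log axis, for each KR mouse (filled, red) and each control (open, blue), with short lines at the group means. All KR mice lie below both controls because the genes were chosen for no overlap between the groups. KR 4 is the highest KR mouse for each of the 12 genes, as for Btc at 16.3 CPM.

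The 12 named genes that fell had log2 fold changes from -2.41 to -1.40, against 2.12 (Crispld2) to 6.02 (Gypc) for those that rose. KR 4 was the KR mouse nearest to the controls in all 12. Btc (chromosome 5, 91357261 to 91402994, minus strand) encodes betacellulin, a ligand of the EGF receptor. Its level was 5.58, 6.14, 16.3 and 4.04 CPM in KR and 47.2 and 37.9 CPM in the controls (-2.41 ± 0.48, adjusted p = 0.0316). KR 4 was apart from the other KR mice, and its place below both controls was required by the choice of genes. Btc was the 1 call among 16 tested genes of the EGF receptor axis (median -0.08, from -0.18 without control 6 to 0.04 without control 4), and the ligand genes Ereg, Epgn and Hbegf had log2 fold changes of -1.39, 1.60 and 0.90, none past the threshold.

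Of the desmosome list, the proteins that rivet keratinocytes together, 2 of 18 tested genes fell and 0 rose (median -0.25, and -0.40 without control 4). DESeq2 called 7 of the 18, all down, and 7 had an unadjusted p under 0.05 by edgeR. Dsg1a, a cadherin of the upper epidermal layers, had 933, 559, 1016 and 442 CPM in KR and 1876 and 2022 CPM in the controls (-1.40 ± 0.31, adjusted p = 0.0385). Dsc3, a cadherin of the lower layers, had 957, 811, 1095 and 777 CPM against 1562 and 1500 CPM (-0.75 ± 0.17, adjusted p = 0.0393). In both genes KR 3 and KR 5 were the lowest mice and the groups did not overlap, which for Dsg1a the choice of genes required. The suprabasal list, genes of the differentiating layers, had 0 of 32 called by edgeR, 3 by DESeq2 and 9 at an unadjusted p under 0.05, with a median of -0.36 and 25 negative members. Krt10, the main suprabasal keratin, had 16331, 8220, 13848 and 6788 CPM in KR and 17246 and 18035 CPM in the controls (adjusted p = 0.266), low in KR 3 and KR 5 and near the controls in KR 1. Flg2, a filaggrin relative of the granular layer, was at a log2 fold change of -1.10 ± 0.34 (adjusted p = 0.0893).

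In the basal list 2 of 19 tested genes rose, Thbs1 and Krt14, with a median of 0.07 (from 0.03 without control 6 to 0.16 without control 4). Krt14, whose promoter drives the Cre, had 10274, 11371, 8411 and 11238 CPM in KR and 5989 and 5674 CPM in the controls (0.82 ± 0.16, adjusted p = 0.0211). Counts on Krt14 may hold reads of the driver transgene, which whole-gene counts do not resolve. Its partner keratin Krt5 (0.33 ± 0.13, adjusted p = 0.148) and Krt15, a keratin of basal and bulge cells (-0.39 ± 0.18, adjusted p = 0.205), did not pass the test.

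Barrier lipid genes, which make the fats between cornified cells, had 1 of 22 rise and 2 fall, with a median of -0.33. Among those that fell was Abhd5, a co-activator of lipid hydrolysis needed for the barrier (-0.64 ± 0.15, adjusted p = 0.0399). The lipoxygenase gene Alox12e rose, from 597 and 766 CPM in the controls to 1457, 1720, 1030 and 1348 CPM in KR (1.03 ± 0.19, adjusted p = 0.0211), but its log2 fold change was 0.11 against all 7 controls pooled and did not pass. Among protease inhibitors Serpinb7, whose human counterpart is mutated in a palm and sole keratoderma, had 54.3, 35.95, 71.4 and 25.5 CPM in KR and 154 and 156 CPM in the controls (-1.73 ± 0.40, adjusted p = 0.0426). Serpinb5, known as maspin, had -0.91 ± 0.21 (adjusted p = 0.0397). Tmprss11f, a membrane protease gene, had -1.70 ± 0.41 (adjusted p = 0.048).

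Slc38a3, an amino acid transporter gene, fell by 1.78 on the log2 scale, and Slc9a3, a sodium-proton exchanger gene, fell by 1.74. Il22ra2, which encodes a soluble decoy that binds the cytokine IL-22, had 11.9, 12.97, 16.8 and 7.30 CPM in KR and 37.3 and 30.6 CPM in the controls (-1.48 ± 0.29, adjusted p = 0.0265). The kinase gene Rps6ka6, of the ribosomal S6 kinase family, had 26.2, 21.8, 36.1 and 14.9 CPM against 66.6 and 74.96 CPM (-1.52 ± 0.27, adjusted p = 0.0187), and KR 5 was the lowest mouse. The homeobox gene Sebox (-2.15 ± 0.50), the acyltransferase gene Mboat2 (-1.72 ± 0.37), Plcxd2 (-1.71 ± 0.37) and the sensory receptor family gene Mrgprb3 (-1.68 ± 0.41) were the remaining members of the 12 largest falls. Skint genes, keratinocyte proteins of which Skint1 selects epidermal gamma-delta T cells, had 1 of 11 fall by edgeR and 9 negative, with a median of -1.04. DESeq2 called 6 of the 11 down, and 7 had an unadjusted p under 0.05 by edgeR. The 1 that edgeR called was Skint11, with 16.03, 9.90, 15.4 and 9.17 CPM in KR and 24.97 and 27.1 CPM in the controls (-1.05 ± 0.24, adjusted p = 0.0385).

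**Figure D3:**
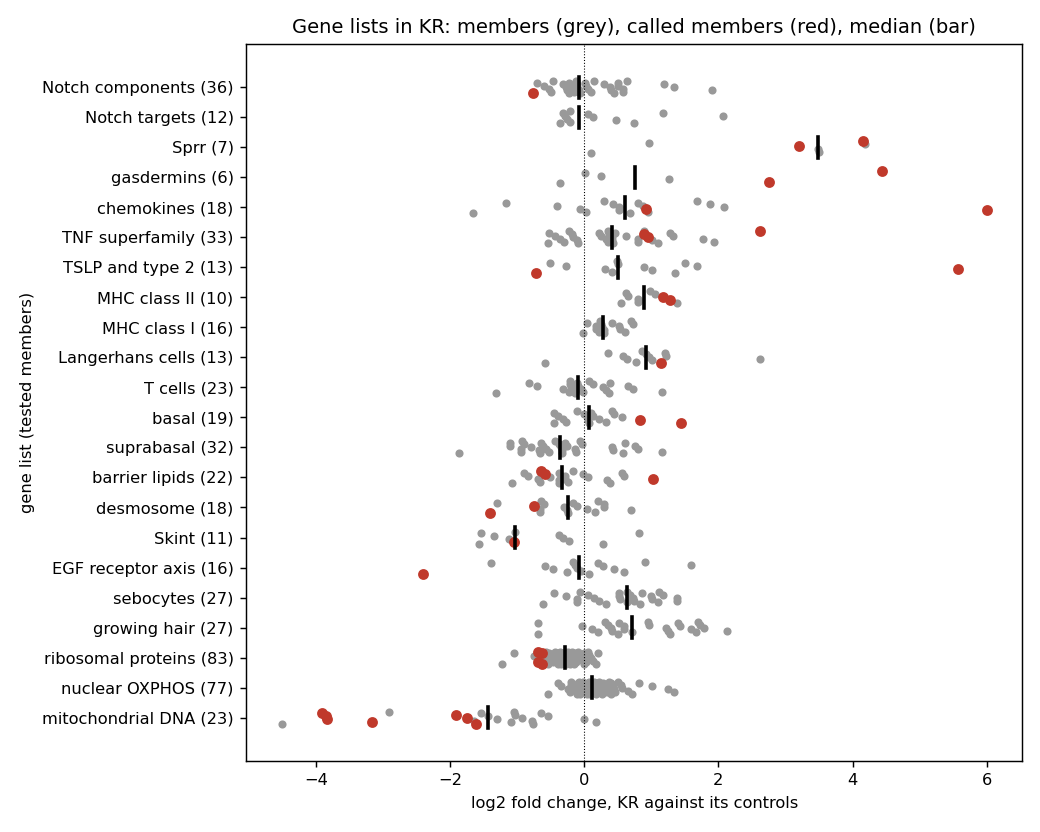
Log2 fold change of each tested member of 22 gene lists in KR (grey, called members red, list median as a bar; number tested in brackets). The Sprr median is 3.48, the median of mitochondrial DNA genes is -1.44, and Notch components and targets have medians of -0.07 each.

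Of 36 tested receptors, ligands, processing enzymes and nuclear partners of the Notch pathway 1 fell and 0 rose. DESeq2 called 2 up and 2 down, and 14 had an unadjusted p under 0.05, against 3780 of the 16517 genes tested. Their log2 fold changes ran from -0.76 to 1.91, with 17 positive, 19 negative and a median of -0.07. The gene that fell was Itch, a ubiquitin ligase gene known to act on Notch, with 35.4, 37.6, 45.8 and 35.1 CPM in KR and 62.2 and 68.5 CPM in the controls (-0.76 ± 0.17, adjusted p = 0.0385). Notch2 was lower in every KR mouse than in the controls, at -0.59 ± 0.20 on the log2 scale (adjusted p = 0.104), and Jag1, a ligand gene, had -0.22 ± 0.22 (adjusted p = 0.565). Of 12 tested target genes 0 were called by edgeR, 0 by DESeq2 and 1 had an unadjusted p under 0.05, with 6 positive and 6 negative and a median of -0.07 (-0.23 without control 4). Hes1, the best known target, had 72.2, 37.9, 72.05 and 63.5 CPM in KR and 55.2 and 62.6 CPM in the controls (0.06 ± 0.25, adjusted p = 0.905), so the groups overlapped. Hey1 (-0.28 ± 0.48) and Nrarp (-0.21 ± 0.25) did not pass either.

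Of 23 tested genes encoded by mitochondrial DNA 7 fell and 0 rose, with 2 positive members and a median of -1.44. The gene mt-Co3, for a subunit of cytochrome c oxidase, had 4.39, 5.05, 5.83 and 6.12 CPM in KR and 45.6 and 109.7 CPM in the controls (-3.85 ± 0.75, adjusted p = 0.0316). The controls differed from each other by more than the 4 KR mice did, with control 6 the higher. At these levels mt-Co3 holds a small part of the reads on mitochondrial DNA. All such reads were 0.982% to 1.72% of counts in KR and 1.87% and 3.17% in the controls. They differed less between the groups than mt-Co3 did, and the cause was not tested. Over the alternatives the log2 fold change of mt-Co3 ran from -4.35 to -1.43. It did not pass without control 4, control 6, KR 1, KR 3 or KR 5 or with the share of each library that is second-named as a covariate, and DESeq2 gave it no adjusted p. Nuclear genes for oxidative phosphorylation had 0 of 77 called by edgeR, 3 by DESeq2 and 14 at an unadjusted p under 0.05, with a median of 0.11 (-0.0011 without control 4, 0.22 without control 6 and 0.04 without KR 5). Of 83 tested ribosomal protein genes 4 fell, 74 were negative and 9 positive, with a median of -0.29 (-0.16 without control 6 and -0.48 without control 4). Of the 83, 18 fell by DESeq2 and 39 had an unadjusted p under 0.05 by edgeR. Rpl7 had 749, 673, 828 and 719 CPM in KR and 1053 and 1340 CPM in the controls (-0.69 ± 0.15, adjusted p = 0.0351). The mean log2 CPM of the mitochondrial DNA list was 5.71 in control 4 and 6.66 in control 6, against 4.21 to 4.99 in KR. The part of RNA quality or run history in these values was not tested.

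**Figure D4:**
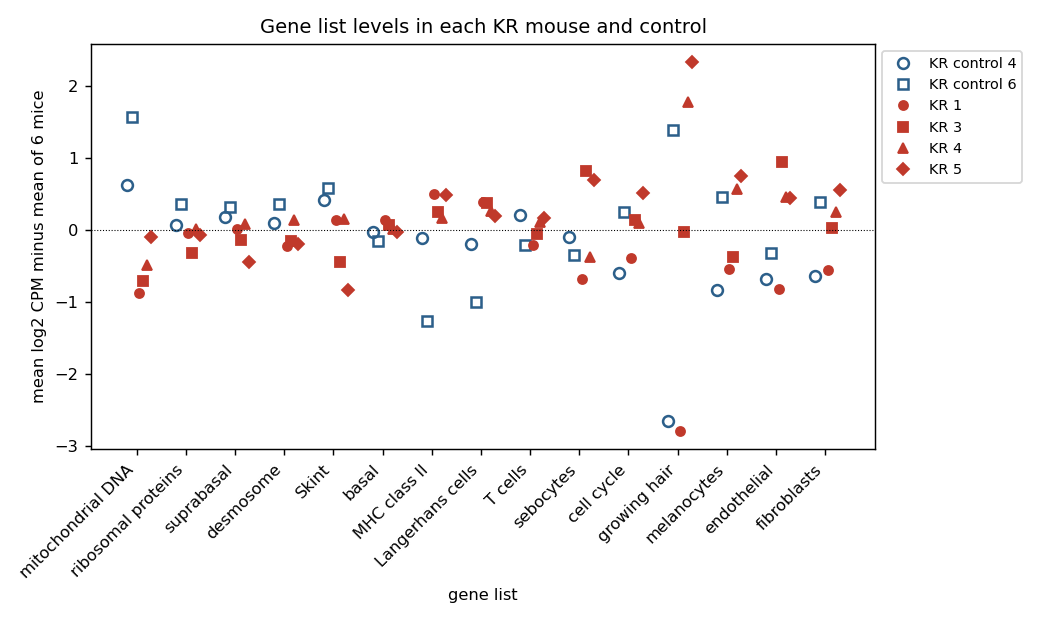
Mean log2 CPM of 15 gene lists in each mouse, shown as the difference from the mean of the 6 mice (KR filled red, controls open blue). The growing hair list spreads most, from -0.51 in KR 1 to 4.61 in KR 5 before that centring, and control 6 is the extreme mouse for the mitochondrial DNA, MHC class II and Langerhans cell lists.

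The KR mice were not alike in their hair follicles and glands. Genes of growing hair follicles had a mean log2 CPM of -0.51, 2.26, 4.06 and 4.61 in KR 1, 3, 4 and 5 and of -0.37 and 3.67 in controls 4 and 6, although the skin is described as resting. Both groups hold mice with high and low values. Of 27 tested hair growth genes 0 were called by edgeR or DESeq2 and 1 had an unadjusted p under 0.05. Their median was 0.72, and it was -0.04 without control 4, 5.79 without control 6 and 0.05 without KR 5. The sebocyte list, the lipid-making cells of the sebaceous gland, had means of 5.37, 6.87, 5.68 and 6.75 in KR and of 5.95 and 5.71 in the controls. KR 3 and KR 5, the females among the KR mice, were higher than all the others, including control 4, which is also female. Of the 27 tested sebocyte genes 0 were called by edgeR or DESeq2, 3 had an unadjusted p under 0.05, 21 were positive and the median was 0.63 (0.22 without KR 3 and 0.37 without KR 5). Plin2, which coats lipid droplets, had 83.9, 341, 136 and 342 CPM in KR and 119 and 89.9 CPM in the controls (adjusted p = 0.155). Bulge stem cell genes had 0 of 15 called by edgeR or DESeq2, 2 at an unadjusted p under 0.05 and a median of 0.44. Cell cycle genes had 0 of 38 called by edgeR or DESeq2, 3 at an unadjusted p under 0.05 and a median of 0.21, which was -0.13 without control 4, 0.78 without control 6 and 0.05 without KR 5.

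**Figure D5:**
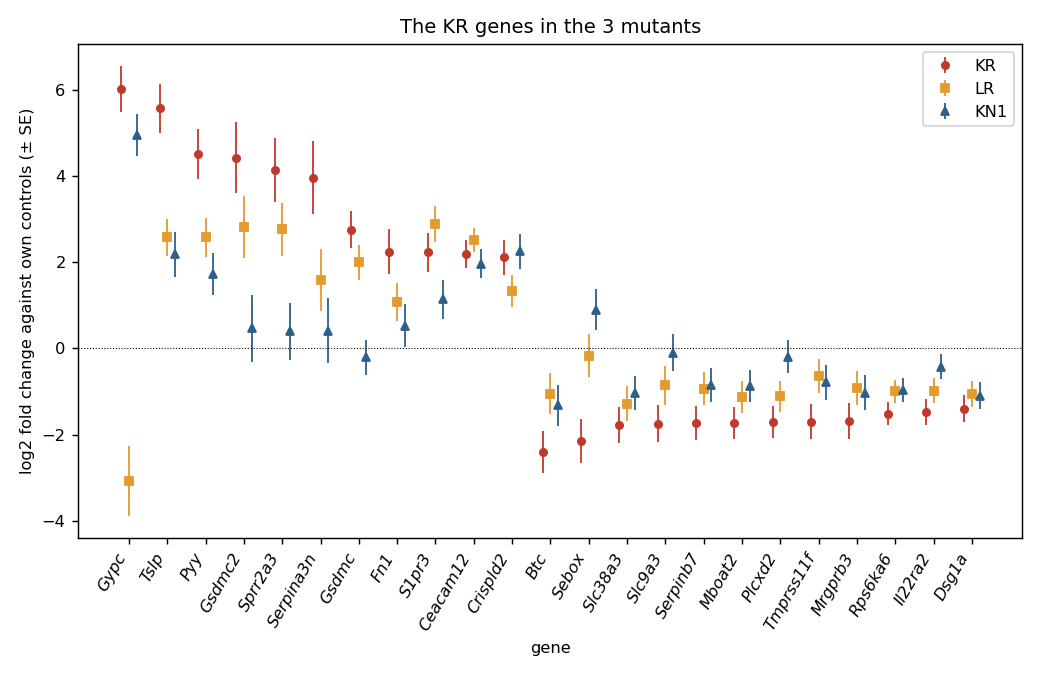
Log2 fold change with its SE for the 23 named genes in KR, LR and KN1, each mutant against its own controls. Gypc is 6.02 in KR and 4.95 in KN1 but -3.08 in LR, where it did not pass the test, while Tslp is positive in all 3 mutants.

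The 3 mutants were set side by side with their separate controls. Of the 11 named genes that rose in KR, 6 rose in LR, where 144 of 16517 genes rose (0.872%), and 4 rose in KN1, where 142 rose (0.86%). Tslp and Ceacam12 rose in all 3, by 5.58, 2.58 and 2.19 for Tslp in KR, LR and KN1. Pyy, Gsdmc and Sprr2a3 rose in LR as well, with 2.58, 2.00 and 2.76, and did not pass in KN1. Of the 12 that fell in KR, 0 passed in LR, where 41 genes fell (0.248%), and 0 in KN1, where 183 fell (1.11%), while 12 and 11 of them had negative values there. The difference between the KR and LR changes passed for 1 gene (0.00605%), and 685 genes had an unadjusted p under 0.05. That gene was Gypc, at 6.02 in KR and -3.08 in LR (adjusted p = 0.0714 in LR), a difference of 9.10 ± 0.93 (adjusted p = 0.000195). For the difference between KR and KN1 edgeR called 0 genes (0%), with 1251 at an unadjusted p under 0.05 and 40 called by DESeq2.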

How the data were processed

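RNA of 18 mice was measured in 18 libraries, so p-values rest on the spread between mice. The table that the authors deposited holds raw read counts for 21011 genes, not normalized, and the submitters' processing notes name STAR, HTSeq, DESeq2 and mm10 with no version or role. Use of strand in counting was not stated there, so overlapping or antisense genes may share reads. Of the rows, 15418 had a symbol in GENCODE M21 (GRCm38, the assembly of mm10). Each column was matched to its mouse by its title.

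Counts were fitted in edgeR 4.0.16 under R 4.3.3 (quasi-likelihood F test, two-sided) with TMM factors, robust dispersions and 6 group means over all 18 mice, after filterByExpr kept 16517 genes. The controls of KR thus borrow their spread from all groups, with a common biological coefficient of variation of 0.225. The SE of a log2 fold change is its size over the root of F. Levels are CPM from the counts and TMM factors, with a prior count of 2 in mean log2 CPM. In simulated counts for KR over 16145 genes, 49% of 100 genes changed by 2-fold and 83% of 100 changed by 4-fold were recovered, and 5.71% of calls were false.

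Members, gene lists and tests were chosen with earlier results of these data known. The named genes are Rbpj, Notch1 and Krt14, the 12 largest rises and 12 largest falls whose higher group has 5 CPM or more, with no overlap between groups and an ordinary symbol, and called members of each list (up to 8, otherwise the 3 smallest adjusted p). Crlf2, Cd207, Krt5, Krt10, Krt15, Notch2, Jag1, Hes1, Hey1, Nrarp, Ereg, Epgn and Hbegf were named after their values were seen. Of the genes this rule names, 3 are not reported here, so that 11 of the 12 rises are given. Within groups, libraries differed beyond sampling noise, and none was treated as a repeat. Alternatives were RLE factors, DESeq2 1.42.0, 2 filters, KR with its controls alone, pooled controls, covariates for sex and for the second-named share, and each mouse left out. The second-named share is a code set from the labels (no second name, a repeat run or another second name). It is not a share of reads that was measured.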

Additional observations from a re-analysis of the deposited data

Results flagged for a closer look

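Among 110 named genes, 7 had 1 KR mouse far from the other 3 by Dixon's criterion, and chance alone gives such a flag in about 1 of 20 groups. KR 4 was at 11.2 CPM for the protease gene Tmprss11f, against 4.51 to 5.25 CPM in the other KR mice, and so nearest to the controls. In Il2ra, the interleukin 2 receptor gene, KR 4 was at 0.409 CPM against 1.31 to 1.49 CPM. KR 4 also had 12.5 CPM of the cell cycle gene Ccne2, against 7.20 to 8.07 CPM, and 921 CPM of the immediate early gene Junb, against 600.1 to 617 CPM. KR 3 stood apart in the stress keratins, with 70.1 CPM of Krt6b against 1.84 to 2.37 CPM and 337 CPM of Krt6a against 112 to 132 CPM. KR 1 had 416 CPM of the chemokine gene Ccl27a, against 299 to 311 CPM.

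The change of Gypc differed between the Rbpj deletions by 9.10 on the log2 scale, higher in KR than in LR, by a test of the difference itself in the same edgeR fit (adjusted p = 0.000195). The LR change alone, -3.08, did not pass in that fit (adjusted p = 0.0714), and levels in single LR mice are not given here.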

How the results depend on the processing

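The count of changed genes in KR (264, with 115 up and 149 down) stayed within 1.5 times with RLE factors, no filter and a mean CPM of at least 1. It was 1076 (516 up, 560 down) with DESeq2, 672 (301 and 371) with KR and its controls alone, 809 (366 and 443) with all 7 controls pooled and 531 (207 and 324) with a sex covariate. It was 12 (12 and 0) with the share of each library that is second-named (controls with a second name in the labels, or a second run) as a covariate, and 32 (13 and 19) without the 3 second-named controls. Leaving out single mice gave 5 to 1353 changed genes, 3 to 620 up and 2 to 733 down. The highest count came without LR control 5, which is no KR mouse, and it was 438 without LR 3, 160 without KN1 2, 141 without KN1 3 and 123 without KN1 4. Where 1 control was left, its spread was assumed to be like that of the other groups. The cause was not tested.

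Genes whose change differed between KR and LR numbered 4 with DESeq2, 32 with pooled controls, 8 without the second-named controls and 1 to 8 with single mice left out. Those that differed between KR and KN1 numbered 40 with DESeq2, 134 with pooled controls and 0 to 3 with single mice left out. Of the 264 changed genes, 249 were called by DESeq2 (all that it gave an adjusted p), 227 with the KR cohort alone, 26 without the second-named controls, 11 with the share covariate and 19 without each single KR mouse in turn, and 262 kept their sign in all 27 alternatives. Of the 11 named genes that rose and the 12 that fell, 3 and 0 passed without control 4, 3 and 0 without control 6, 5 and 0 without KR 3, and 11 and 12 without KR 4. Thbs1 reversed with pooled controls (-0.17). No paired analysis was possible because the labels do not pair KR mice with controls. In the simulated counts about 49% of 2-fold changes were recovered, and how far this holds for the real libraries was not tested.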

Other observations

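The following gene groups, listed after their values had been seen, are given as descriptions with no support drawn from them. Of 41 tested genes of glycolysis and the response to low oxygen, 10 rose and 0 fell in KR, with a median log2 fold change of 0.53. Vegfa, the growth factor for blood vessels, had 64.9, 109, 65.8 and 77.9 CPM in KR and 19.8 and 26.9 CPM in the controls (1.77 ± 0.30, adjusted p = 0.012 by edgeR). Slc16a3, a lactate exporter gene, had 63.8, 83.7, 72.6 and 101 CPM against 15.9 and 23.2 CPM (2.05 ± 0.37, adjusted p = 0.0211), and the glucose transporter gene Slc2a1 had 0.86 ± 0.20. Median values of this list were 0.49 in LR and 0.17 in KN1. Of 25 tested NF-kB genes 5 rose and 0 fell (median 0.37), among them the subunit genes Nfkb2 with 135, 147, 84.9 and 125 CPM against 60.7 and 61.2 CPM (1.01 ± 0.17, adjusted p = 0.0135) and Relb (0.88 ± 0.18). Of 66 tested translation factor genes 4 fell and 0 rose (median -0.22), among them Eef1a1 with 5636, 5071, 5900 and 4928 CPM in KR and 8488 and 9560 CPM in the controls (-0.75 ± 0.17, adjusted p = 0.0393). Against all 7 controls pooled Nfkb2, Relb and Eef1a1 did not pass.

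Gypc (chromosome 18, 32528322 to 32560034) and Tslp (chromosome 18, 32815383 to 32819797) are the 2 genes called under every alternative, and their gene bodies lie 255348 bases apart in GRCm38. The 7 other tested genes placed within 500 kb by GENCODE M21 had log2 fold changes from -0.61 to 0.54, and 0 were called. Of the 16517 tested genes 13441 had a symbol there, and the rest could not be placed. Esr1, the estrogen receptor gene, had 16.98, 21.8, 25.3 and 24.2 CPM in KR and 7.63 and 5.14 CPM in the controls (1.77 ± 0.30, adjusted p = 0.012), with 0.42 in LR and 2.06 in KN1. Tamoxifen-activated Cre carries part of this receptor, and whole-gene counts do not separate the driver's reads from the gene's own.

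The females KR 3 and KR 5 were both above the males KR 1 and KR 4 in 50 of the 115 genes that rose (43.5%) and below them in 4. In the 149 genes that fell they were below in 85 (57%) and above in 0. Over all genes tested the shares were 18.6% above and 22.2% below. With 2 mice of each sex and 1 control of each, this is given as a description, and edgeR called 531 genes with sex as a covariate. The longer Rbpj motif GTGGGAA was found in the promoters of Capg, Dzip1l, Fuom, Mfge8, Mill1, Parp8, Ppp1r18, Pxdc1, Rras, Sprr2a1 and Sprr2a3 among genes that rose and of Ccdc152, Cyp2j6, Paip1 and Sppl2a among genes that fell.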
